A study of Mus musculus with 42 samples.

Results

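Replication-dependent histone genes were followed in mouse liver through 6 comparisons of diet, genotype and resolvin E1. All gene symbols that start with Hist1h, Hist2h, Hist3h or Hist4 and whose normalized counts averaged 5 or more across the 14 livers of KO obese and WT obese mice were taken. This gave 29 of the 63 Hist genes listed there, out of 19755 listed genes. The set held 3 H1, 3 H2A, 12 H2B, 3 H3 and 8 H4 genes. The members with the lowest means were Hist1h4j at 5.60 and Hist1h4b at 6.35 normalized counts, and the Hist genes just below the limit were Hist1h3e at 4.55 and Hist1h4a at 4.36.

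Whole livers came from 42 male C57BL/6J mice, 7 in each of 6 groups with 1 library per mouse. WT mice and littermates whose ChemR23 gene was disrupted by CRISPR/Cas9 (KO) ate a diet with 10% of its energy from fat (lean) or 60% (obese) from 6 weeks of age for 15 weeks. WT obese+RvE1 and KO obese+RvE1 mice then received 300 ng of resolvin E1 by intraperitoneal injection on 4 days, and all other groups, lean mice included, received the ethanol and PBS vehicle. Livers were taken on day 5, and no source used here describes the knockout as limited to a cell type. Cmklr1, which encodes ChemR23, ranged from 9.72 to 22.6 normalized counts in KO lean mice against 40.8 to 114 in WT lean mice, and from 5.08 to 23.2 in KO obese against 33.3 to 102 in WT obese mice. Its groups did not overlap in either comparison, at limma adjusted p of 0.000492 and 0.0339. Reads on listed genes ran from 15987004 to 43841120 per library. The 6 hepatocyte markers (Alb, Apoa1, Ttr, Serpina1c, Cyp3a11 and Cps1) summed to at least 861262 normalized counts in each liver of the KO obese and WT obese table, and none was called in any comparison.

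Core histones H2A, H2B, H3 and H4 form the nucleosome, around which DNA is wrapped, and the linker histone H1 binds where the DNA enters and leaves it. Replication-dependent histone genes lie in clusters, have mostly no introns, and are transcribed in S phase when new DNA has to be packaged. Their mRNAs usually end in a conserved stem-loop that binds the protein SLBP instead of in a poly(A) tail, so libraries selected for poly(A) hold few of them. Most adult hepatocytes do not divide, and some of these genes, among them H1 and H2B genes, are known to make polyadenylated mRNA outside S phase. The labels name the molecule as poly(A) RNA while the library protocol and the study's methods describe total RNA, so which mRNA forms were captured is not settled by the sources used here.

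The stem-loop is shown because it is the sequence that sets these mRNAs apart. It was searched on the transcribed strand as GG, any 2 bases, CTT, any base, T, any base, AG, any 2 bases and CC, a run of 16 bases, in the GENCODE M21 transcripts (GRCm38), and 22 of the 29 members held it. Each form below is written 5′ to 3′ with the 4 loop bases in capitals and the 6 stem bases on either side in lower case.
Hist1h1c, Hist1h1d, Hist1h1e and 11 other members of H2A, H2B and H3: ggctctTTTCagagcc
Hist1h4h, Hist1h4c, Hist1h4d and Hist4h4: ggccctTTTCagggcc
Hist1h4b and Hist1h4j: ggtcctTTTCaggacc
Hist1h4i: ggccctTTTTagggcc
Hist1h2bk: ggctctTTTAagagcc
The H1, H2A, H2B and H3 members that matched had the same 16 bases, except Hist1h2bk in its loop, while the H4 members used other stem bases. These letters were not found in the annotated transcripts of Hist1h2bc, Hist1h2bl, Hist1h4k, Hist1h2bn, Hist1h2ba, Hist2h2be and Hist2h3b. For Hist1h2bl, Hist1h2bn, Hist1h4k and Hist1h2ba the GENCODE models hold 381, 381, 312 and 384 bases, less than the RefSeq spans of 473, 478, 409 and 432. The models of Hist2h3b and Hist2h2be are also shorter, with 488 against 502 and 2620 against 2667 bases. A stem-loop beyond such an annotated end would be missed, so these genes are not shown to lack it. In 16 members an annotated transcript ran at least 100 bases past the stem-loop, by 840 bases in Hist1h1c, 1153 in Hist1h1e and 4884 in Hist1h1d.

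Promoters of the 3 H1 members are shown because 2 of these genes were called in the diet comparison of KO mice and all 3 had the smallest unadjusted p among members with RvE1 in KO mice. Each runs from 250 bases before to 50 bases after the start site that RefSeq annotates on GRCm38.p6, and is written 5′ to 3′ on the gene's strand. Capitals mark AAACACA (the H1 box), CCAAT and TATAAA on either strand.
Hist1h1c, chr13:23738557-23738856, plus strand: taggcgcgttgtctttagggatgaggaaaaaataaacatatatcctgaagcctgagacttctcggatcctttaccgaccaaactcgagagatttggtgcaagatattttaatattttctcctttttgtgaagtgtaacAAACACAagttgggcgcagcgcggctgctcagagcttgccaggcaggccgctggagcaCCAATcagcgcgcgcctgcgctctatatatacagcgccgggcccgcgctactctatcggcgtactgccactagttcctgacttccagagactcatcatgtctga
Hist1h1d, chr13:23554782-23555081, plus strand: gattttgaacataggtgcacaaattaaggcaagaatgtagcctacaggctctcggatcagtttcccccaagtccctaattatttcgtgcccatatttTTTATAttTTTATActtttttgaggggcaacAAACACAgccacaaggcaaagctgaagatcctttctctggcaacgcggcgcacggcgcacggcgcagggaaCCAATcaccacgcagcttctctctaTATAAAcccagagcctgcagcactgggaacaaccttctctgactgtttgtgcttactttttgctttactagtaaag
Hist1h1e, chr13:23622509-23622808, minus strand: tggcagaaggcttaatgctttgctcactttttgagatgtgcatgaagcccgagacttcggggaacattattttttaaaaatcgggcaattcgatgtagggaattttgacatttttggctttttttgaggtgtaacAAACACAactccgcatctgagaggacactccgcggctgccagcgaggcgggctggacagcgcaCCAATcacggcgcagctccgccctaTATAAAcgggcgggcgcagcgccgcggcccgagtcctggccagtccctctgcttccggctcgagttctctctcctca
All 3 held the H1 box and CCAAT, and Hist1h1d and Hist1h1e also held TATAAA. On the gene's strand the H1 box began 112 bases before the start in Hist1h1c, 122 in Hist1h1d and 115 in Hist1h1e, and CCAAT began 54, 51 and 52 bases before it. Among the 28 promoter sequences of 27 members, AAACACA was found in 4 (14.3%) against 7.18% of 32851 promoters of the same length. CCAAT was found in 22 (78.6%) against 37.4%, TATAAA in 14 (50%) against 13.6%, and the octamer ATTTGCAT in 7 (25%) against 1.74%. By class, CCAAT was in every H1, H2A, H2B and H3 promoter searched but in only 2 of 8 H4 promoters, and the octamer was in 3 of 3 H2A and 4 of 11 H2B promoters. The promoters of Hist1h2ae (chr13:23571171-23571470) and Hist1h2bg (chr13:23571150-23571449) overlap on opposite strands. Sites in their overlap, the octamer included, are therefore counted for both genes and both classes. A match is a run of letters and was not tested as a binding site.

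On GRCm38, 23 members lay on chromosome 13 between 21715763 and 23934156, 4 on chromosome 3 between 96221119 and 96269141, Hist3h2a on chromosome 11 (58954685 to 58956830) and Hist4h4 on chromosome 6 (136801553 to 136804415). Hist1h1c (chr13:23738808-23740367), Hist1h1d (chr13:23553262-23560686), Hist1h1e (chr13:23620629-23622558) and Hist1h4h (chr13:23531050-23531519) are protein-coding genes of a single exon. The exon of Hist1h1e overlaps Hist1h2be and Gm11398 on the same strand, so reads there cannot be assigned to one of them. Many members also share sequence with other histone genes. In 28 of the 29 at least one 50-base window of the transcript was also found in another annotated gene, histone or not, on either strand. In 10 members at least 50% of windows were shared. The windows shared by Hist4h4 were found in no other histone gene. The share was 8.54% in Hist1h1c, 2.25% in Hist1h1d, 45.8% in Hist1h4h and 71.5% in Hist1h4k, and 100% in Hist2h3c1 and Hist2h3b. It was 32% in Hist1h1e, its overlap with Hist1h2be and Gm11398 included. For Hist1h2bc it was 30.6%, over windows found in 220 other genes, H2B genes and genes that are not histone genes. Values of strongly shared members are therefore uncertain as to which gene the reads came from.

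Most reads counted for the members in liver were assigned to a pair of genes, Hist1h2bc and Hist1h1c. Of the 50-base windows of Hist1h2bc, 30.6% are shared with other genes. In the table of KO obese and WT obese mice, Hist1h2bc (an H2B gene) had a mean of 3852 normalized counts and Hist1h1c (the H1.2 linker gene) of 2833, which were 48.5% and 35.7% of the sum over members. Per kb of exonic length, so that genes can be compared, Hist1h2bc was at 3399 ± 744 (SD, n = 7) in WT obese and 3265 ± 516 in KO obese mice, and Hist1h1c at 1837 ± 499 and 1795 ± 520. The ranges over 14 livers did not overlap, at 2571 to 4608 per kb for Hist1h2bc and 1129 to 2493 for Hist1h1c. This order rests on the length used, since over its shorter RefSeq span Hist1h1c was at 3908 per kb, above the 3332 of Hist1h2bc over exonic length, and Hist1h2bc had no value per kb of RefSeq span.

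The next levels per kb were far lower, and Hist1h2bg and Hist1h4i are named here from their rank after it was seen. Hist1h2bg (H2B) reached a mean of 493 per kb, followed by the H4 genes Hist1h4h at 187 and Hist1h4i at 156, whose ranges over livers overlapped (97.7 to 396 and 65.2 to 202). Over RefSeq spans their order turned, with Hist1h4i at 281 and Hist1h4h at 202 per kb. The highest H2A gene was Hist3h2a at 66.3 per kb and the highest H3 gene was Hist2h3c1 at 62.7, again with overlapping ranges of 25.2 to 139 and 22.3 to 144. The other H1 genes were low beside Hist1h1c, with Hist1h1e at 24.6 and Hist1h1d at 3.64 per kb. The value of Hist1h1d rests on a 7425-base annotated transcript, and with its RefSeq span of 776 bases it was 34.8 per kb. Hist1h1a and Hist1h1b, the remaining somatic H1 genes named here, had means of 1.46 and 1.2 normalized counts and were not members.

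**Figure D1:**
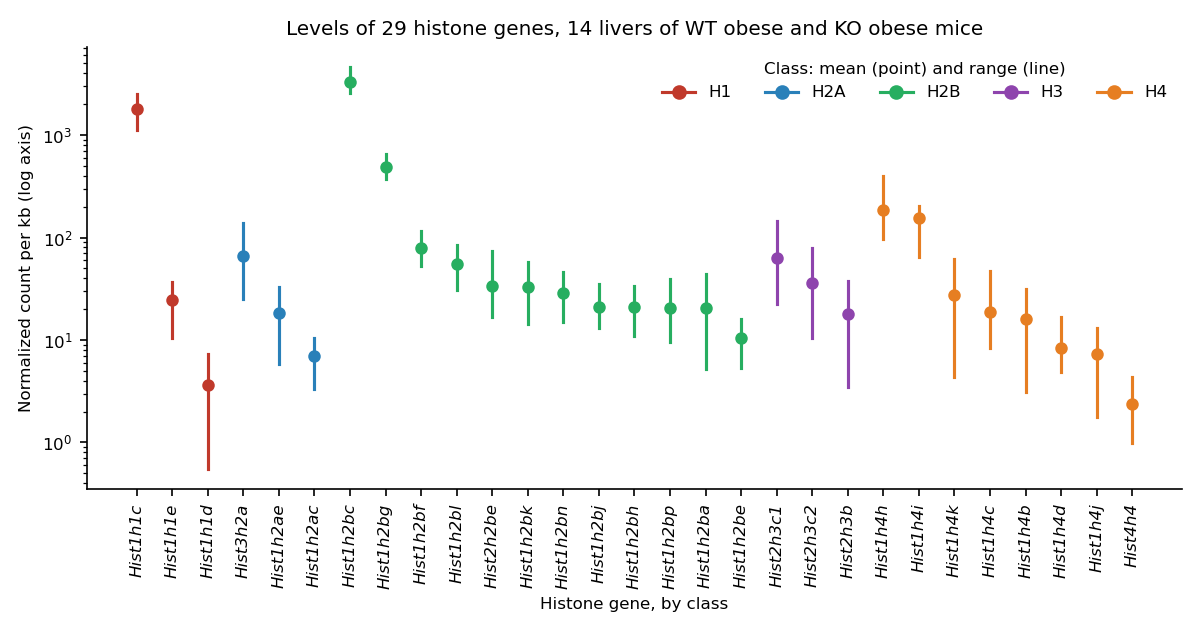
Normalized count per kb of exonic length (log axis) of the 29 histone genes, grouped by class, in 14 livers of WT obese and KO obese mice. Points are means and lines run from the lowest to the highest liver, and Hist1h2bc and Hist1h1c stand at 3332 and 1816 per kb, above all other members.

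Spread between livers also differed among members. Across these 14 livers the coefficient of variation was 18.6% for Hist1h2bc, the lowest of all members, and 27.0% for Hist1h1c, but 56.9% for Hist1h1d, 61.4% for Hist1h4k and 61.9%, the highest, for Hist1h4c. Hist1h1d ran from 4.12 to 53.7 normalized counts within WT obese mice alone. Counting error is relatively larger where reads are few, and its part in these spreads was not tested.

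In each comparison a gene was called at a limma adjusted p under 0.1, adjusted over all genes tested in that table, together with a fold change above 1.5 on the log2(normalized count + 1) scale. Comparison of WT obese with WT lean mice asked how the high fat diet acted on these genes with ChemR23 intact, and 0 of 26 members tested were called by limma, against 3.8% of 14012 genes. None had an unadjusted p under 0.05 either, against 18.2% of all genes, and edgeR and DESeq2 called none. Members not tested were Hist1h4k, Hist4h4 and Hist1h4j, whose means in this table were under 5. The members with the smallest unadjusted p were H4 and H2A genes. Hist1h4i had 47.1, 88.8 and 135 normalized counts (lowest, median, highest) in WT lean and 58.8, 114 and 133 in WT obese mice, a log2 difference of 0.34 ± 0.22 (SE) with adjusted p = 0.449. Hist1h4h had 36.7, 54.9 and 106 against 41.9, 77.4 and 169 (0.43 ± 0.31, adjusted p = 0.496), and Hist1h2ac 4.96, 11.2 and 22.9 against 7.50, 18.8 and 23.5 (0.42 ± 0.33, adjusted p = 0.539). The groups overlapped for each of them.

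No linker histone gene was called in this comparison, with log2 differences of -0.20 ± 0.22 for Hist1h1c, -0.04 ± 0.21 for Hist1h1e and 0.36 ± 0.50 for Hist1h1d. The 95% interval for Hist1h1c ran from -0.65 to 0.26. The median log2 difference was 0.08 over the 26 members and 0.00298 over all genes. Leaving out WT obese mouse 22L brought Hist1h4k over the filter. It was then the 1 member called, higher in WT obese mice, when 5.23% of all genes were called. Over all mice Hist1h4k had a mean of 2.30 normalized counts in WT lean and 7.50 in WT obese mice, where 22L was lowest at 1.25. Leaving out that mouse both admitted the gene through the group where it is high and raised that group, so this call is not independent of the filter.

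The same diet in KO mice gave 3 called members of 29 (10.3%), close to the 10.4% of all 14213 genes that were called. Hist1h1c and Hist1h1e, both linker histone genes, fell and Hist1h4k rose. Thus 6.90% of members were called lower against 5.42% of all genes, and 3.45% were called higher against 4.97%. Members were chosen by their mean in obese livers, those of KO obese mice included, which favors genes that are higher there. The shares of members called are therefore not independent of that choice. At an unadjusted p under 0.05 there were 5 members, 17.2% against 32% of all genes, the other two being Hist1h4h and the H3 gene Hist2h3c2 (-0.64 ± 0.29, adjusted p = 0.145), which is named here after its value was seen. The median log2 difference over members was -0.11, and over all genes it was -0.00206.

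Across KO lean mice Hist1h1c had 2966, 5671 and 8668 normalized counts (lowest, median, highest), and across KO obese mice 2029, 3112 and 3994. The groups overlapped, and 3 of the 7 KO obese mice were below every KO lean mouse. Hist1h1c fell by 0.96 ± 0.25 on the log2 scale, to 0.514 of its lean level, with adjusted p = 0.0220. This call held in each of the 14 fits that left out 1 mouse and in all 9 changes of scaling, filter or test, with adjusted p from 0.00130 to 0.0700 in the latter.

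Hist1h1e, which encodes H1.4, had 50.9, 60.3 and 99.4 normalized counts across KO lean mice against 21.2, 35.6 and 73.3 across KO obese mice, with 4 KO obese mice below every KO lean mouse. It fell by 0.69 ± 0.27 on the log2 scale, at an adjusted p of 0.0925 that lay close to the limit. The call was lost with edgeR (0.137), with equal read totals (0.219), with a correction for gene length and GC content (0.163) and with mice blocked by the number in their identifier (0.207). It was also lost on leaving out 14RL, 20L, 20R, 9L or 9RL among KO lean mice or 10-2L, 23L, 31L or 31N among KO obese mice, with adjusted p from 0.107 to 0.166. Hist1h1d, which encodes H1.3, had 12.6, 21.5 and 77.1 with the lean diet and 9.23, 18.8 and 46.8 with the high fat diet, a difference of -0.23 ± 0.42 with adjusted p = 0.741.

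Hist1h4k was scarce, with 0, 3.07 and 7.17 normalized counts across KO lean mice against 6.20, 7.05 and 15.9 across KO obese mice, of which 3 were above every KO lean mouse. It rose by 1.22 ± 0.43 on the log2 scale with adjusted p = 0.0656. The call was lost with the identifier number as a block (0.169) and on leaving out 20L or 9L among KO lean mice, or 10-2L or 23L among KO obese mice (0.1005 to 0.112). Hist1h4h, another H4 gene, had 69.7, 145 and 202 with the lean diet and 64.5, 79.5 and 105 with the high fat diet. Its difference of -0.50 ± 0.23 was not called (adjusted p = 0.149), but edgeR called it at -0.59 (0.0819) and DESeq2 at -0.60 (0.0548), and limma did so without KO lean mouse 14RL (0.0962) or 20R (0.0523). The most abundant member, Hist1h2bc, had 3033, 3920 and 6435 against 3089, 3609 and 4927, a difference of -0.14 ± 0.16 whose 95% interval was -0.48 to 0.20.

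The sum over all members was 8287, 12423 and 13837 normalized counts across KO lean mice against 6075, 8166 and 8939 across KO obese mice, a ratio of means of 0.690. Without Hist1h1c, which had the highest mean in this table, the ratio was 0.889. Some markers of other liver cell types moved in the same comparison, in which 5.42% of all genes were called lower. Of the Kupffer and myeloid markers 4 of 7 tested were called lower (Vsig4, Cd5l, Timd4 and Clec4f), and their summed level was 7136 to 15116 in KO lean against 3981 to 5390 in KO obese mice, with no overlap. Of the B and T lymphocyte markers 5 of 7 were lower, with sums of 83.1 to 147 against 26.5 to 77.9. Clec4g was the 1 sinusoidal endothelial marker called lower, of 6 tested. Of the erythroid markers 1 of 3 tested was called lower, and of the 5 stellate cell markers 0 were called. Cd3d, Cd3g and Cd8a of the lymphocyte list were each at 0 in at least 1 KO obese liver, and no Kupffer or myeloid marker listed was at 0 in any liver. RNAs without a poly(A) tail also moved, with Rnu11 and Rmrp called lower out of 5 tested. The part of these cell types and of library composition in the histone values was not tested, and fewer cells of a type cannot be told apart from less RNA per cell in whole liver.

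Lean KO mice were compared with lean WT mice to see the effect of the deletion without obesity. Here 2 of 23 members tested were called, 8.70% against 6.65% of 13031 genes, and both were higher in KO lean mice, against 3.94% of genes called higher. The same 2 were the only members with an unadjusted p under 0.05 in that fit, against 26.8% of all genes. Hist1h2bj, Hist1h4k, Hist1h2ba, Hist4h4, Hist1h4b and Hist1h4j were not listed in this table. KO lean mice are also the controls of the diet comparison in KO mice, so the calls of Hist1h1c in the 2 comparisons share those 7 livers.

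Hist1h4h had 38.1, 57.1 and 110 normalized counts in WT lean and 63.5, 132 and 183 in KO lean mice, and 4 of 7 KO lean mice were above every WT lean mouse. It rose by 0.84 ± 0.28 on the log2 scale (adjusted p = 0.0724). Hist1h1c had 1670, 3101 and 4611 in WT lean and 2702, 5142 and 7865 in KO lean mice, again with 4 KO lean mice above every WT lean mouse. It rose by 0.72 ± 0.27 (adjusted p = 0.0956). For Hist1h1e the difference was 0.26 ± 0.24 and for Hist1h1d 0.24 ± 0.44, at adjusted p of 0.501 and 0.764. Hist1h2bc differed by 0.16 ± 0.21 (adjusted p = 0.654).

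Both calls were near the limit. Equal read totals gave adjusted p of 0.101 for Hist1h4h and 0.179 for Hist1h1c, the length and GC correction 0.109 and 0.182, and the identifier number as a block 0.186 and 0.181, each with the same direction. The Hist1h1c call was lost on leaving out 21L, 21R, 26R or 8R among WT lean mice, or 14RL, 20L, 9L or 9RL among KO lean mice (0.125 to 0.197). The Hist1h4h call was lost without 21L, 26R or 8R among WT lean mice, or 20-2L, 20L, 9L or 9RL among KO lean mice (0.119 to 0.152). The summed member level was 5279, 8066 and 10295 in WT lean and 7505, 11253 and 12519 in KO lean mice, a ratio of means of 1.34, which was 1.103 without Hist1h1c. Beside this, 6 of 7 Kupffer and myeloid markers were called higher, with sums of 6475 to 13707 in KO lean against 2658 to 6087 in WT lean mice. Of the lymphocyte markers 2 of 4 tested were higher (Ms4a1 and Cd79b), and so were Rpph1 and Rmrp, the only RNAs without a poly(A) tail that were tested. Rpph1 was 1.71 ± 0.46 and Rmrp 0.77 ± 0.25 higher on the log2 scale (adjusted p = 0.0461 and 0.0683). Their part in the histone values was not tested.

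**Figure D2:**
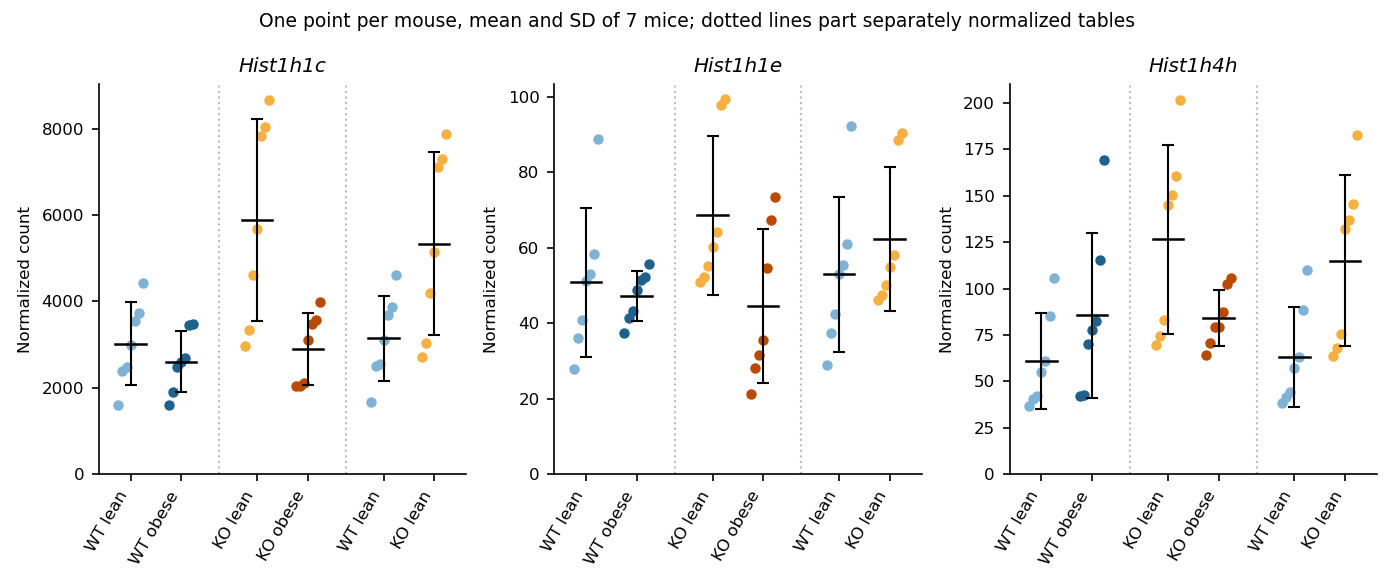
Normalized counts of Hist1h1c, Hist1h1e and Hist1h4h in each mouse, by group, with the mean and SD of 7 mice; dotted lines separate the diet table of WT mice, the diet table of KO mice and the table of lean mice, which were normalized separately. In it, KO lean mice reach 8668 for Hist1h1c against 3994 in KO obese mice, KO lean mice spread widely, and WT lean and WT obese mice overlap throughout.

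Whether the diet acted differently in the 2 genotypes was tested directly. No member of 26 passed an adjusted p of 0.1 for the diet by genotype interaction in limma, against 0.00717% of 13945 genes, and 2 members (7.69%) had an unadjusted p under 0.05 against 18.3% of all genes. These were Hist1h4h, with a log2 difference of 0.43 in WT and -0.50 in KO mice (interaction -0.93 ± 0.40, adjusted p = 0.218), and Hist1h1c, with -0.20 and -0.96 (-0.76 ± 0.35, adjusted p = 0.245). DESeq2 passed Hist1h4h alone and edgeR passed none, and leaving out KO lean mouse 20R let Hist1h1c pass. The share of all genes passing was then 6.65% with DESeq2 and 13.2% without 20R, so 1 member of 26 lay below it in both. A diet effect on linker histone genes that differs between the genotypes was therefore not shown by limma.

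Among obese mice the genotypes did not differ in any called member, with 0 of 29 called against 0.0141% of 14162 genes. None had an unadjusted p under 0.05, against 2.25%, and edgeR and DESeq2 also called 0. The smallest unadjusted p belonged to Hist1h2bn (H2B), with 5.65, 8.26 and 12.3 normalized counts in WT obese and 8.46, 11.8 and 17.6 in KO obese mice, a log2 difference of 0.45 ± 0.23. Hist1h1e followed, with 41.2, 53.7 and 61.5 against 20.3, 34.1 and 70.6 (-0.38 ± 0.25), and Hist1h2bp, with 10.8, 14.8 and 27.7 against 6.77, 10.0 and 21.5 (-0.39 ± 0.29). Adjusted p was 1.00 for each, rounded from 0.999938. Hist1h1c differed by -0.04 ± 0.20 with a 95% interval of -0.47 to 0.39, and Hist1h1d by -0.35 ± 0.49. All 29 members lay within 0.5 of 0 on the log2 scale, and this absence of calls does not show equal levels, since the median SE was 0.29.

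Resolvin E1 in WT obese mice gave 0 called members of 20 tested, and 0% of 13085 genes were called at all. None of the members had an unadjusted p under 0.05, against 6.08% of all genes, and edgeR and DESeq2 called 0. Not listed in this table were 9 members. Hist1h2bf (H2B) had 26.1, 40.1 and 56.3 normalized counts in vehicle and 31.6, 42.3 and 58.3 in RvE1 mice (0.28 ± 0.20, adjusted p = 0.919). Hist1h1c had 1882, 3071 and 4085 against 2432, 3353 and 5567 (0.24 ± 0.19, adjusted p = 0.943), and Hist1h4c 7.33, 10.3 and 40.8 against 9.11, 18.1 and 29.5 (0.45 ± 0.36, adjusted p = 0.940). Hist1h1e differed by 0.04 ± 0.15 and Hist1h1d by 0.46 ± 0.43.

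In KO obese mice, which lack the receptor, RvE1 also gave 0 called members of 29, with 0% of 14207 genes called. The 3 linker histone genes nevertheless had the smallest unadjusted p among members and were all higher with RvE1. In all, 4 members (13.8%) had an unadjusted p under 0.05 against 8.3% of genes, of which 3 (10.3%) were higher against 3.45% and 1 (3.45%) lower against 4.85%. Their adjusted p of 0.557 for all 3 linker genes did not pass. The KO obese vehicle livers are also the obese group of the diet comparison in KO mice, where Hist1h1c and Hist1h1e were called lower. The fall there and the higher values here thus share those livers and are not independent.

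Hist1h1d had 9.27, 19.0 and 47.2 normalized counts in KO obese and 44.0, 61.8 and 97.2 in KO obese+RvE1 mice, with 5 of 7 treated mice above every vehicle mouse. The log2 difference was 1.54 ± 0.34 (2.90-fold), with a 95% interval of 0.82 to 2.25 and an unadjusted p of 0.000306. Hist1h1e had 21.3, 35.7 and 74.0 against 52.6, 78.5 and 113, also with 5 treated mice above every vehicle mouse (0.98 ± 0.27, unadjusted p = 0.00199). Hist1h1c had 2047, 3124 and 4070 against 2891, 4753 and 5312, with 5 treated mice above (0.62 ± 0.18, unadjusted p = 0.00359). Hist1h2bf, named here after its value was seen, was the remaining member at that limit and lay on the other side of 0, with 32.0, 40.7 and 50.1 against 16.99, 29.3 and 51.3 (-0.50 ± 0.22, unadjusted p = 0.0359). Hist1h2bc, the most abundant member, differed by -0.03 ± 0.20, with a 95% interval of -0.45 to 0.39.

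DESeq2 called Hist1h1d higher (1.38, adjusted p = 0.0624), the 1 member called there, when it called 0.0985% of all genes, and edgeR called no member. Without each mouse in turn limma called none. The direction of all 3 linker genes held under each of the 9 changes of scaling, filter or test, with log2 differences of 1.38 to 1.67 for Hist1h1d, 0.89 to 1.05 for Hist1h1e and 0.57 to 0.70 for Hist1h1c. The sum over members was 6129, 8253 and 9109 in KO obese and 7374, 10002 and 12342 in KO obese+RvE1 mice. Most of this difference lay in Hist1h1c. The mean sum was 8120 in KO obese and 9817 in KO obese+RvE1 mice, while the mean of Hist1h1c alone was 2932 and 4414. For Hist1h2bc the means were 3954 and 4037. Of the lymphocyte markers none of 6 tested was called, although their sums were 22.5 to 71.5 in vehicle and 58.7 to 154 in RvE1 mice, and none of the 7 Kupffer and myeloid markers was called. The part of these cells in the linker histone values was not tested.

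**Figure D3:**
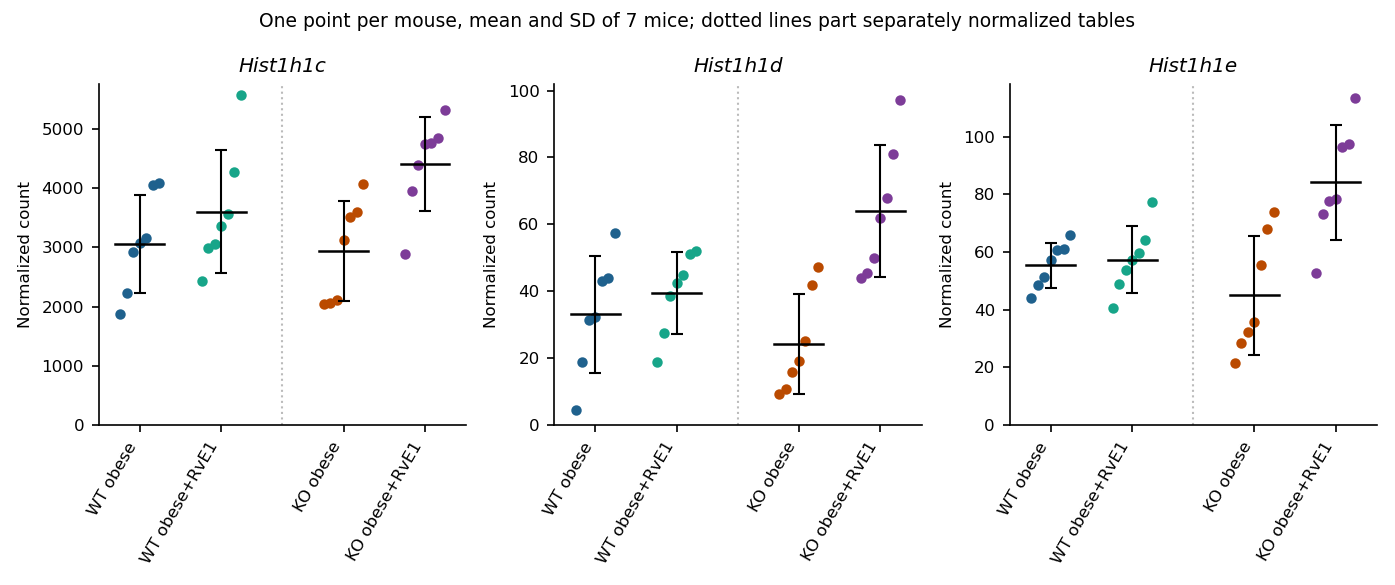
Normalized counts of the linker histone genes Hist1h1c, Hist1h1d and Hist1h1e in each obese mouse with vehicle or RvE1, with the mean and SD of 7 mice; a dotted line separates the WT and KO tables, which were normalized separately. In KO mice 5 of 7 treated mice lie above every vehicle mouse for each gene, and no gene was called by limma.

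The RvE1 by genotype interaction passed no member of 20 at an adjusted p of 0.1, as for all genes (0%), and edgeR and DESeq2 passed none. At an unadjusted p under 0.05 there were 2 members (10%) against 2.39% of 13079 genes. Hist1h1e had a log2 difference of 0.04 in WT and 0.98 in KO mice (interaction 0.94 ± 0.31, unadjusted p = 0.00496), and Hist1h2bf 0.28 and -0.50 (-0.79 ± 0.30, unadjusted p = 0.0132). Hist1h1d differed by 1.08 ± 0.57 and Hist1h1c by 0.38 ± 0.28 between genotypes. Adjusted p was 1.00 for each (rounded from 0.999966).

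No member had groups that did not overlap in any of the 6 comparisons. Among all genes tested this held for 1.36% in WT obese vs WT lean, 2.1% in KO obese vs KO lean, 0.744% in KO lean vs WT lean, 0.0282% in KO obese vs WT obese, 0.107% in WT obese+RvE1 vs WT obese and 0.0211% in KO obese+RvE1 vs KO obese. The comparisons within a diet or genotype share groups of mice, so the columns of the plot of fold changes are not independent of each other.

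**Figure D4:**
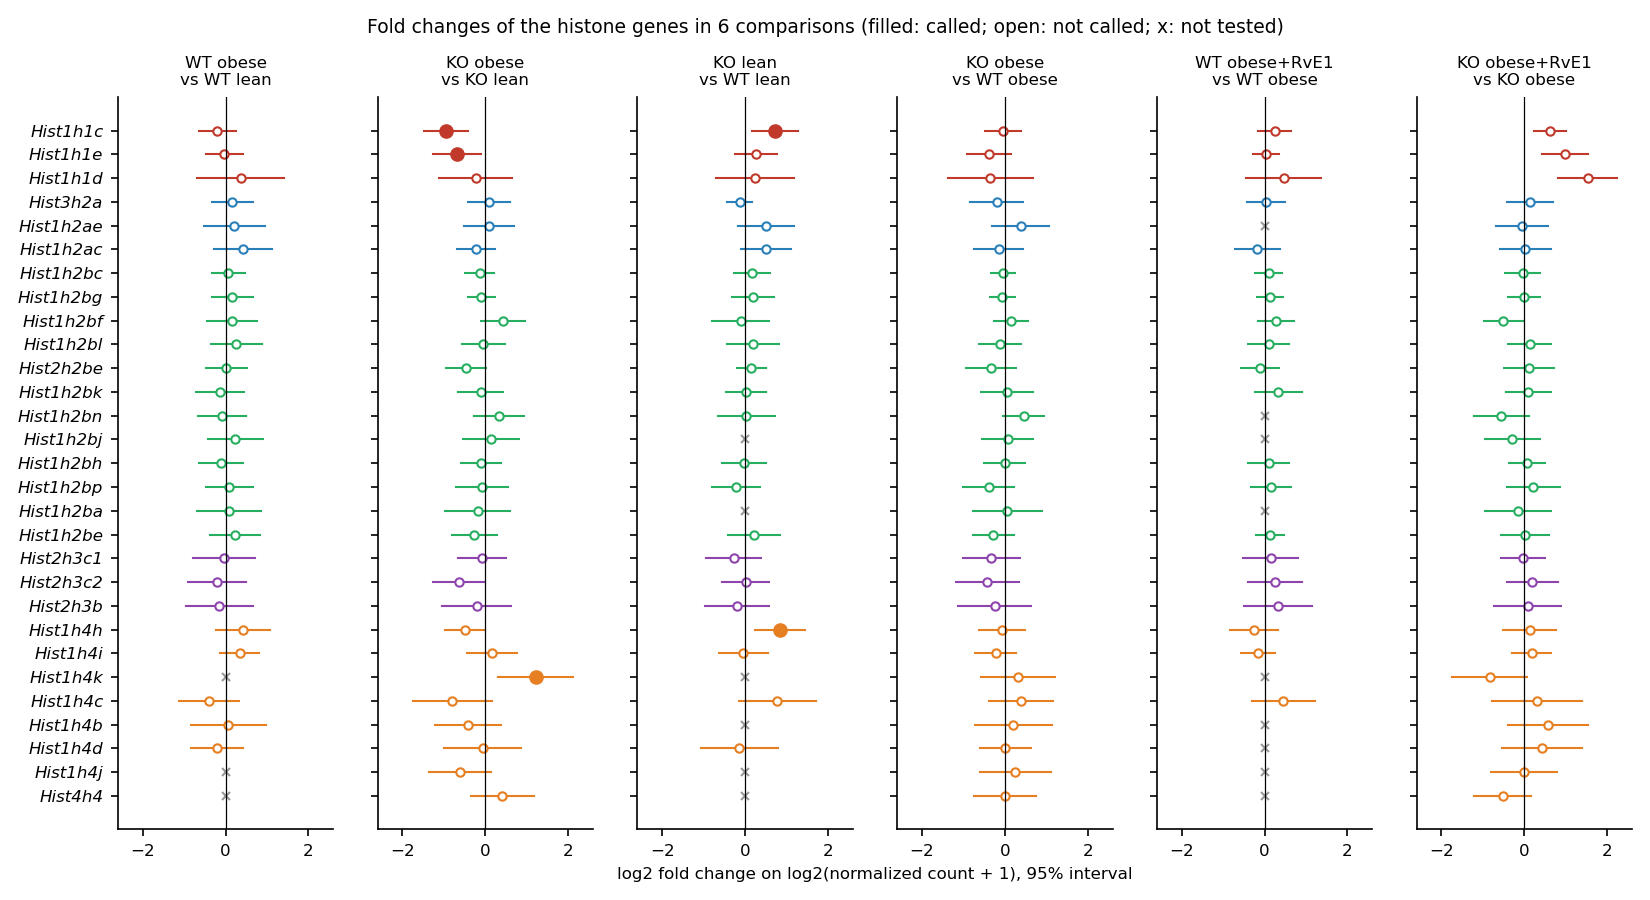
Log2 fold changes with 95% intervals of the 29 histone genes (rows, by class) in the 6 comparisons (columns); filled points were called, open points were not, and crosses mark genes not tested. Filled points appear in KO obese vs KO lean (3) and KO lean vs WT lean (2), and the 3 linker genes at the top stand right of 0 in KO obese+RvE1 vs KO obese without being called.

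Genes that make or handle histone mRNA were mostly not called. Slbp, which encodes the stem-loop binding protein, was not called in any comparison, and its largest difference was -0.34 ± 0.13 in KO obese vs KO lean mice (adjusted p = 0.0780), under the fold limit. Npat, a coactivator of histone gene transcription, was 0.38 ± 0.12 higher in KO obese than KO lean mice (adjusted p = 0.0396) and at -0.33 ± 0.12 in KO lean against WT lean mice (adjusted p = 0.0906), both also under it. Of 25 tested genes for histone mRNA transcription and 3-prime processing, 1 was called higher in KO obese vs KO lean mice (Upf1, a helicase of mRNA decay, 0.69 ± 0.13, adjusted p = 0.00478) and 1 lower in KO lean vs WT lean mice (Xrn1, an exonuclease, -0.59 ± 0.20, adjusted p = 0.0791). None was called in the other 4 comparisons. Of all genes, 4.97% were called higher in KO obese vs KO lean mice and 2.7% lower in KO lean vs WT lean mice. At any fold, 8 of the 25 had an adjusted p under 0.1 in KO obese vs KO lean mice, against 24.1% of all genes. In KO lean vs WT lean mice 7 of 25 did, against 16.3%.

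Of up to 20 tested histone chaperone and assembly genes, Anp32e, which removes H2A.Z from chromatin, was the only one called, at 0.76 ± 0.18 in KO obese vs KO lean mice (adjusted p = 0.0144) and -0.69 ± 0.18 in KO lean vs WT lean mice (adjusted p = 0.0458). No replication-independent histone gene was called among the 10 or 11 tested per comparison. In that list H1f0, the linker histone of resting cells, which was picked out after its values were seen, had means of 6975 ± 1184 (SD) across KO lean mice and 5324 ± 425 across KO obese mice, a difference of -0.37 ± 0.12 (adjusted p = 0.0443) under the fold limit.

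Of 38 tested genes of DNA replication and S phase, 3 were called higher and 1 lower in KO obese vs KO lean mice, where 4.97% of all genes were called higher and 5.42% lower. Rrm2, a subunit of ribonucleotide reductase, rose by 1.40 ± 0.36 and E2f1, a transcription factor of S phase entry, by 0.87 ± 0.25, while E2f8 fell by 0.76 ± 0.16. In WT obese vs WT lean mice E2f1 rose by 0.59 ± 0.18 and E2f8 fell by 0.61 ± 0.19, out of 37 tested. There 2.26% of all genes were called higher and 1.53% lower. In KO lean vs WT lean mice only E2f7 of 34 was called, at -0.94 ± 0.34, against 2.7% of all genes called lower. Of the genes of G2 and mitosis 3 of 17 were called lower in KO obese vs KO lean mice, with Kif11, a mitotic motor, at -0.60 ± 0.20 and Aurkb, a mitotic kinase, at -0.93 ± 0.37. No gene of these lists was called in the other comparisons.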

How the data were processed

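Liver RNA of 42 mice was sequenced by the authors as stranded total RNA libraries, aligned to mm10 with Bowtie2 and counted per gene with featureCounts, both read ends required. For versions, gene annotation, strand setting and reads that map to several genes, nothing is given in the sources used here. The deposited values are normalized counts, a signal made by the authors by dividing whole reads by DESeq2 size factors in each of 6 tables of 14 libraries, so groups were compared within a table. The deposited tables also hold the authors' own fold changes and p-values, which were not used. Whole reads were recovered from 100% of values within 0.1 reads.

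Each table was fitted with limma (3.58.1, R 4.3.3; lmFit, eBayes with trend, two-sided) on log2(normalized count + 1) for genes with a mean of at least 5, with Benjamini-Hochberg adjustment over all of them. Calls needed an adjusted p under 0.1 together with a change of more than 1.5-fold. Fold changes on this scale understate those of low genes. Interactions were fitted over both tables of a pair and counted at an adjusted p under 0.1. Alternatives were pseudocounts of 0.5 and 4, no filter, TMM, equal read totals, a loess correction for length and GC content (span 0.3), the number that opens a mouse's identifier as a random block, other thresholds, edgeR (4.0.16) and DESeq2 (1.42.0) on recovered reads, and leaving out each mouse.

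Named members were up to 6 called in each direction per comparison, or the 3 with the smallest unadjusted p where none was called, the highest member per kb of each class, the H1 genes, and genes next to the limit. From other lists up to 2 called genes per direction were named, with Slbp, Npat and Cmklr1. The members and lists were chosen with earlier results of these data known. Annotation came from GENCODE M21 and RefSeq, in which all 29 members were matched. The fits were checked on simulated data, and plots were drawn with matplotlib (3.10.9). Some marker genes are not reported here.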

Additional observations from a re-analysis of the deposited data

Results flagged for a closer look

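For a mouse far from the other mice of its group, 88 pairs of a histone gene, or the sum over members, and a group of 7 mice were examined. In 7 of them 1 mouse stood apart, each time with the highest value, and the cause was not tested. The limit flags about 1 in 20 for independent, normally distributed values. These are untransformed counts of genes in shared mice, so that rate need not apply to them. Hist1h1d was 77.1 normalized counts in KO lean mouse 9RL against 12.6 to 33.2 in the other KO lean mice. Hist1h2bf was 51.3 in KO obese+RvE1 mouse 12L against 16.99 to 31.3, and Hist1h4c was 105 in KO obese+RvE1 mouse 23-2L against 5.87 to 32.2. Hist1h4c was 34.8 in WT obese mouse 27RL against 6.25 to 12.4. Hist3h2a was 271 in WT obese mouse 27-2L against 63.8 to 143. Hist1h2bp was 26.8 in WT lean mouse 19R against 8.51 to 14.9, and 29.5 in WT obese+RvE1 mouse 30L against 14.1 to 20.7.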

How the results depend on the processing

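Of 92 counts of histone genes under other settings, 81 stayed within 1.5 times the reported count. In KO obese vs KO lean mice the count of 3 became 1 at an adjusted p under 0.05 (7.77% of all genes called), 1 with the identifier number as a block (5.28%), 5 with DESeq2 (11.4%) and 0 with an absolute log2 fold change above 1.5 (0.95%). In KO lean vs WT lean mice the count of 2 became 0 at an adjusted p under 0.05 (3.68%), with that fold limit (0.0844%), equal read totals (7.67%), the length and GC correction (4.54%) and the block (0.023%). DESeq2 gave 1 in KO obese+RvE1 vs KO obese (0.0985%) and 1 in the diet by genotype interaction (6.65%), in place of 0. The stricter limits lower counts by construction, and for the other settings the cause was not tested. Leaving out each mouse gave 0 to 2 in KO lean vs WT lean, 1 to 3 in KO obese vs KO lean, 0 to 1 in WT obese vs WT lean and 0 to 1 in the diet interaction, and 0 in the other comparisons. No median over members moved by more than the spread between mice. No paired analysis was possible because groups share fewer than 2 identifier numbers. Number 23 is in both KO obese and KO obese+RvE1 mice, every other number lies within 1 group, and the labels do not say what a number marks.

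Members near 0 changed sign without being called. With equal read totals Hist1h1e was 0.022 in WT obese vs WT lean, and Hist1h2bc 0.0069 in KO obese vs KO lean and 0.042 in KO obese+RvE1 vs KO obese. With the length and GC correction Hist1h2bc was -0.097 in WT obese vs WT lean, -0.055 in KO lean vs WT lean and 0.014 in KO obese+RvE1 vs KO obese, and Hist1h1c was 0.0034 in KO obese vs WT obese. With the block Hist1h2bc was 0.0038 in KO obese vs WT obese, and with edgeR and DESeq2 it was 0.042 and 0.030 in KO obese+RvE1 vs KO obese. Leaving out each mouse changed a sign in these ranges. In WT obese vs WT lean, Hist1h1e ran from -0.16 to 0.11 and Hist1h2bc from -0.066 to 0.15. In KO obese vs KO lean, Hist1h1d ran from -0.42 to 0.042, and in KO lean vs WT lean from -0.047 to 0.45. In KO obese vs WT obese, Hist1h1c ran from -0.15 to 0.040, Hist1h2bc from -0.10 to 0.034 and Hist1h4h from -0.22 to 0.11. With RvE1, Hist1h1e ran from -0.038 to 0.11 in WT mice, and in KO mice Hist1h2bc ran from -0.15 to 0.086 and Hist1h4h from -0.051 to 0.31. With RefSeq spans in place of exonic length, chosen after the data were seen, Hist1h1c was at 3908 per kb, Hist3h2a at 280.2, Hist2h3c1 at 172, Hist1h4h at 202 and Hist1h4i at 281, so that Hist1h4i was then the highest H4 gene.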
